A study of Mus musculus with 25 samples.

Results

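Anterior neural tissue of wild-type (WT) mouse embryos was compared between embryonic day 9.5 (E9.5) and E8.5. The comparison used 7 of the 25 arrays of the series, chosen by their labels: 4 arrays of E9.5 WT tissue and 3 arrays of E8.5 WT tissue. The other arrays held embryos without the microRNA cluster miR-302 (miR-302 KO) and earlier WT stages. Of those, the 4 E9.5 KO and 3 E8.5 KO arrays of the same tissue served to ask whether a stage difference was shared by the mutant. All embryos were of strain B6, replicates were separate embryos according to the submitters, and no treatment is given in the labels. The labels do not describe how the tissue was dissected at each stage. All 4 E9.5 WT arrays were run on plate 4 and all 3 E8.5 WT arrays on plate 2, so stage and plate cannot be told apart in any WT value below.

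These days span the closure of the cranial neural tube in the mouse. The neural folds rise and fuse, signals from local organizers such as the isthmus at the midbrain-hindbrain boundary divide the tube into forebrain, midbrain and hindbrain, and the first neurons leave the progenitor layer under the control of proneural transcription factors. Cells of the early neural plate still carry transcripts of the epiblast, the pluripotent tissue from which they arose, and these are lost as progenitors mature.

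Expression was measured on Illumina MouseRef-8 v2.0 BeadChips, which give a fluorescence intensity and a detection p-value for each probe. The E9.5 arrays were brighter before normalization, with median raw intensities of 222 to 262, against 112 to 121 at E8.5, and they detected 50.2% to 51.0% of probes, against 45.1% to 47.0%. All values below are background-corrected, quantile-normalized log2 intensities, and each gene is represented by its brightest detected probe. Levels of different genes are not comparable, because each probe has its own affinity. After normalization, the 4 E9.5 arrays correlated with each other at 0.982 to 0.995, and the 3 E8.5 arrays at 0.980 to 0.984. Arrays of different stages correlated at 0.932 to 0.960. These are Pearson r across probes detected on 3 or more arrays, and probes are not independent replicates. The number of arrays limits the precision of every value.

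A gene is said to have risen or fallen at E9.5 where limma's moderated test gave an adjusted p under 0.05 (Benjamini-Hochberg over all 10261 genes tested). By this rule 1944 genes rose (18.9%) and 2354 fell (22.9%), so that 41.9% of all genes passed. Among them 753 rose (7.34%) and 585 fell (5.7%) by at least 2-fold. The median log2 difference over all genes was -0.07, and counts of single gene groups below are to be read against these shares. When arrays were scaled by their 75th percentile instead of by quantiles, the median of all genes moved to -0.39 and the split became 1435 rises and 4816 falls. Small falls are therefore relative to the quantile scale. Where a probe was at background on every array of the lower stage, the fold is a lower bound, taken against the dimmest detected signal of those arrays, and is written "at least". Where only some arrays of the lower stage detected a probe, their number is given, and where it was 1 the log2 difference is printed without a fold.

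Some arrays stood apart in markers of other tissues. Of 15 placenta and trophoblast genes tested, the mean log2 level was 6.48 to 6.73 on the 4 E9.5 arrays. At E8.5 it was 7.43 on replicate 1 and 7.84 on replicate 3, but 6.37 on replicate 2. Prl2c3, a prolactin-family hormone of the placenta, read 4.64 to 4.72 at E9.5, and 10.64, 5.72 and 9.70 on the 3 E8.5 arrays. E8.5 replicate 3 also had the highest cardiac marker mean (6.82, with 5.88 and 6.12 on the other E8.5 arrays) and the lowest endothelial mean (7.12, with 8.22 and 7.88). At E9.5, the cardiac mean was 5.62 to 5.84 and the endothelial mean 8.11 to 8.30. With E8.5 replicates 1 and 3 both left out, a choice made after these values were seen, 923 genes rose and 1157 fell, on a fit that takes the lone E8.5 array to vary like the other groups.

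The label of the tissue was checked with 14 measured genes of anterior neural identity. Otx2, the homeobox factor of forebrain and midbrain, was bright at both stages, at 11.20 to 11.36 on the E9.5 arrays and 11.19 to 11.47 on the E8.5 arrays. Sox2, a factor of neural progenitors, was detected on all 7 arrays, at 7.13 to 8.38 at E9.5 and 8.29 to 8.49 at E8.5. The forebrain factor Hesx1 and the eye and forebrain factor Pax6 have probes that were at background on all 25 arrays, and Sox3 was at background on all 7 WT arrays. Of the 14 genes, 2 rose and 6 fell, with a median log2 difference of -0.55.

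**Figure D1:**
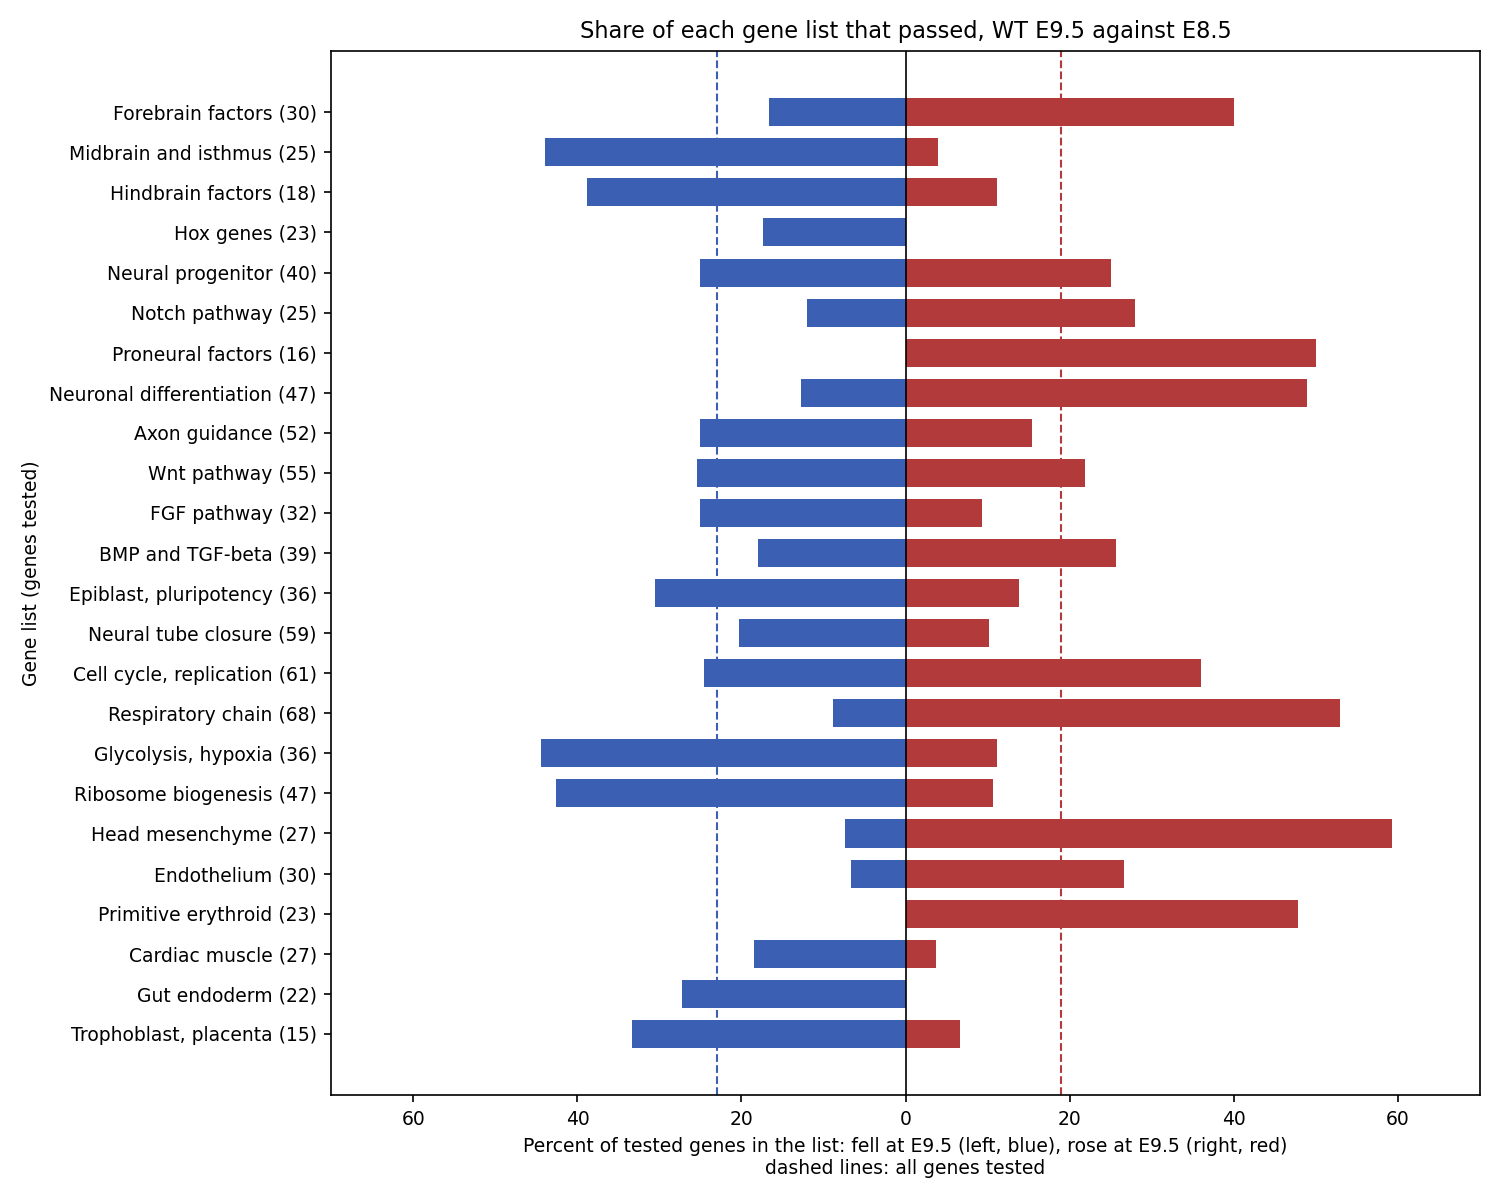
Share of the tested genes in each gene list that rose (red, to the right) or fell (blue, to the left) at E9.5 relative to E8.5 in WT tissue, with the number of genes tested in brackets; dashed lines mark the shares over all genes tested, 18.9% rising and 22.9% falling. Head mesenchyme, respiratory chain, proneural and neuronal genes reached furthest to the right, and glycolysis, midbrain and ribosome biogenesis genes furthest to the left.

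The rise with the smallest p-value belonged to Sst, which encodes the neuropeptide somatostatin. Its level was 9.03, 9.16, 8.66 and 9.08 on the E9.5 arrays, and 4.62, 4.75 and 4.66 on the E8.5 arrays, where its probe was at background. The stages did not overlap, and Sst was at least 9.39-fold higher at E9.5 (log2 difference 4.30, SE 0.16, limma adjusted p = 6.75e-13). KO tissue gave a log2 difference of 3.98, and the WT and KO differences could not be distinguished (adjusted p = 0.376). The promoter of Sst is shown because its cyclic AMP response element, TGACGTCA, is a textbook regulatory site. The letters in capitals begin 48 bases upstream of the annotated start, on chr16:23890845-23891094, minus strand, RefSeq GRCm38.p6.
Sst: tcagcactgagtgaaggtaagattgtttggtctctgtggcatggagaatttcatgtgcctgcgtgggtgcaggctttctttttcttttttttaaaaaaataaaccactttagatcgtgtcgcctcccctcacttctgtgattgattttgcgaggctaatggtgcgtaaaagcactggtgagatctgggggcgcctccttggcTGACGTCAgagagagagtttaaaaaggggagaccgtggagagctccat
The same 8 letters, a palindrome, lie in the 250 bases before the start of 2.50% of the 8311 tested genes that have a promoter sequence. A match describes the sequence and is no evidence of use.

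The other large rises spanned several cell types. Vcam1, an adhesion molecule of endothelium and mesenchyme, read 10.22, 9.94, 10.28 and 10.74 at E9.5, and 5.29, 6.94 and 5.02 at E8.5, where 1 of 3 arrays detected it (log2 difference 4.54, SE 0.52, adjusted p = 1.59e-06). Ptx3, a secreted pentraxin of innate immunity, was at least 9.47-fold higher, and a second probe of the gene gave a log2 difference of 3.33. Pf4, a chemokine of megakaryocytes and platelets, was at least 7.2-fold higher. Crym, a thyroid hormone binding protein, rose 8.53-fold, and Wfdc1, a secreted protease inhibitor detected on 2 of 3 E8.5 arrays, rose 7.78-fold. Foxe1, a forkhead factor of pharyngeal and pituitary epithelium, gave a log2 difference of 2.96 and was detected on 1 of 3 E8.5 arrays.

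The largest fall was that of Foxd4, a forkhead factor of the early neural plate. It read 5.19, 5.02, 4.80 and 4.99 at E9.5, and 10.45, 9.97 and 10.52 at E8.5. The E9.5 arrays were all at background, so that Foxd4 was at least 29.8-fold lower at E9.5 (log2 difference -5.32, SE 0.48, adjusted p = 1.3e-07). Krt23, an epithelial keratin, was also at background on every E9.5 array and was at least 9.15-fold lower.

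Falls outnumbered rises at E9.5 among genes of the midbrain and isthmus. Of 25 tested, 11 fell and 1 rose, 9 of the falls were at least 2-fold, and the median log2 difference was -0.57. Under 75th-percentile scaling 18 fell, and with any of the 7 arrays left out the single rise was not called. En1, an engrailed homeobox factor that maintains midbrain and anterior hindbrain, read 6.57, 6.73, 5.63 and 6.22 at E9.5, and 9.19, 9.67 and 9.70 at E8.5 (log2 difference -3.23, SE 0.39, adjusted p = 2.58e-06). Gbx2, which sets the hindbrain side of the isthmus, read 8.88, 8.49, 8.56 and 8.29 at E9.5, and 11.76, 11.21 and 11.97 at E8.5, an 8.53-fold fall (adjusted p = 1.3e-09). For both genes the stages were separated by more than the range within either stage.

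Wnt1, the ligand made by the dorsal midbrain and isthmus, read 6.43 to 6.74 at E9.5 and 8.53 to 8.96 at E8.5, a 4.35-fold fall (adjusted p = 1.05e-07). Sp5, a zinc-finger target of Wnt signals, fell 3.21-fold, and Foxb1, a forkhead factor of the midbrain and diencephalon, gave a log2 difference of -2.27 (detected on 1 of 4 E9.5 arrays), with -1.28 on a second probe. Fgf8, the isthmic organizer ligand itself, did not follow, with 9.85, 9.59, 9.53 and 9.99 at E9.5, and 9.59, 9.32 and 9.69 at E8.5 (log2 difference 0.21, SE 0.20, adjusted p = 0.429). En2, the second engrailed gene, passed narrowly (log2 difference -1.41, adjusted p = 0.0481). Its adjusted p was 0.17 without E8.5 replicate 2 and 0.122 without E9.5 replicate 3.

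**Figure D2:**
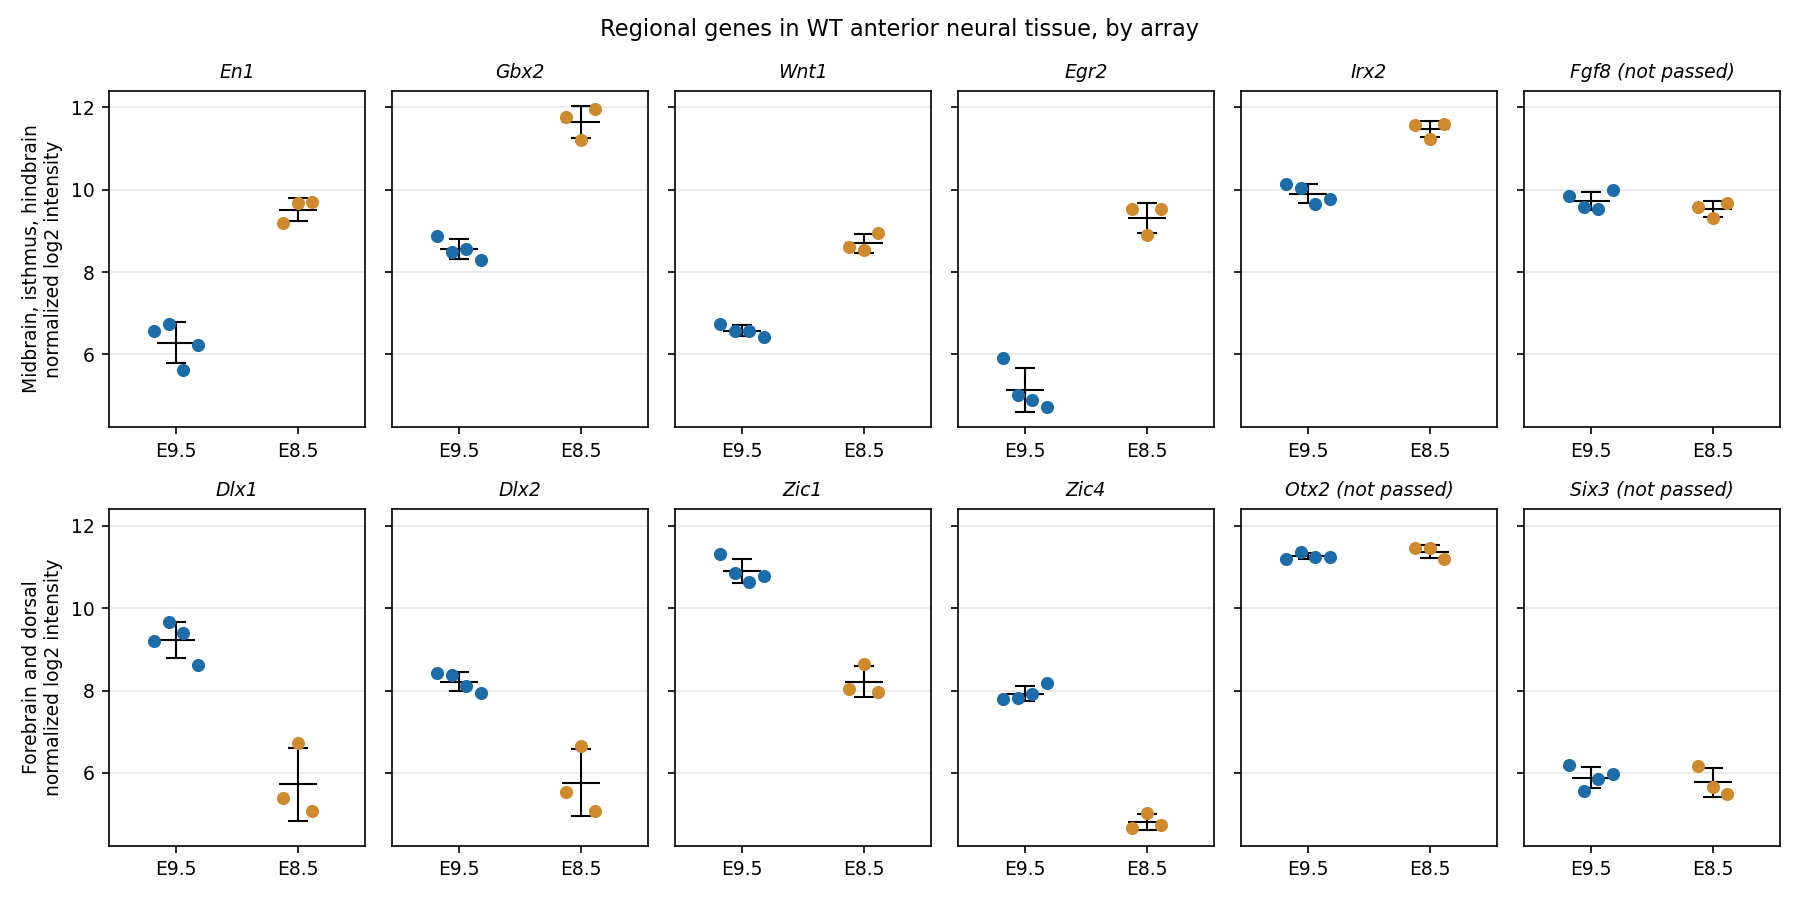
Normalized log2 intensity of 12 regional genes on each array of WT anterior neural tissue; points are arrays (4 at E9.5 on the left, 3 at E8.5 on the right), and black bars are means with SD. En1, Gbx2, Wnt1, Egr2 and Irx2 were lower on every E9.5 array, Dlx1, Dlx2, Zic1 and Zic4 were higher on every E9.5 array, and Fgf8, Otx2 and Six3 did not pass the test.

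In the hindbrain list, 7 of 18 tested genes fell and 2 rose, and 1 rose without E8.5 replicate 1 or 3 or without E9.5 replicate 2, 3 or 4. Egr2, also called Krox20, the zinc-finger factor that specifies rhombomeres of the hindbrain, read 5.90, 5.01, 4.9 and 4.72 at E9.5, and 9.54, 8.89 and 9.52 at E8.5. It was above background on 1 of the 4 E9.5 arrays and on all E8.5 arrays, and it fell (log2 difference -4.19, SE 0.31, adjusted p = 1.74e-08). Irx2, an Iroquois homeobox factor, read 9.66 to 10.15 at E9.5 and 11.24 to 11.59 at E8.5, a 2.96-fold fall. A second Irx2 probe gave a log2 difference of -0.64. Irx1, detected on 3 of 4 E9.5 arrays, fell 2.82-fold. With E8.5 replicates 1 and 3 left out together, its log2 difference was -0.68.

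Of the 23 Hox genes tested, which pattern hindbrain and spinal cord along the axis, 4 fell and none rose, and 19 did not pass (limma); at an unadjusted p under 0.05, 4 were lower and 0 higher. Hoxb2, expressed in the hindbrain, fell 2.83-fold, with 8.79, 8.57, 8.26 and 7.37 at E9.5, and 9.91, 9.34 and 9.99 at E8.5. The Hox count was 2 falls with E8.5 replicate 1, E8.5 replicate 3 or E9.5 replicate 4 left out, but 21 falls under 75th-percentile scaling, with a median of -1.40 against -0.39 for all genes. The mean level of the list was 5.40 to 5.53 at E9.5 and 5.73 to 5.99 at E8.5. The dimmest detected signals were 5.40 to 5.44 on the E9.5 arrays and 5.67 to 5.84 on the E8.5 arrays. The list mean thus lay near background, and these counts say little about Hox levels. Hoxa2 read 9.27, 9.24, 9.23 and 7.85 at E9.5, and 9.78, 9.83 and 9.78 at E8.5 (adjusted p = 0.0355). The fourth array was its lowest by more than 1 log2 unit, and the adjusted p was 0.14 without it.

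Among forebrain factors, rises outnumbered falls. Of 30 tested, 12 rose and 5 fell, 10 of the rises were at least 2-fold, and the median log2 difference was 0.54. Under 75th-percentile scaling 9 rose and 8 fell, with a median of 0.09 against -0.39 for all genes. With a random block for plate 7 rose and 4 fell, with a median of 0.48. Dlx1, a homeobox factor of ventral forebrain and of branchial arch crest, read 9.21, 9.68, 9.41 and 8.63 at E9.5, and 5.38, 6.74 and 5.07 at E8.5 (log2 difference 3.50, SE 0.39, adjusted p = 1.37e-06). Its partner Dlx2 gave a log2 difference of 2.45, and each of the pair was detected on 1 of 3 E8.5 arrays.

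Zic1, a zinc-finger factor of the dorsal neural tube, read 11.32, 10.85, 10.64 and 10.79 at E9.5, and 8.05, 8.65 and 7.97 at E8.5, a 6.41-fold rise (adjusted p = 0.000213). Zic4, of the same family, was at background on all E8.5 arrays and was at least 4.53-fold higher at E9.5. Nr2f2, a nuclear receptor of caudal forebrain and of mesenchyme, rose 2.91-fold. Not all forebrain genes gained. Otx1 fell 2.28-fold, Fezf2, a factor of the anterior forebrain, fell 2.6-fold, and Wnt8b, a ligand of the dorsal forebrain and hypothalamus, fell 2.41-fold. Fezf2 did not pass with a random block for plate (limma adjusted p = 0.126). The eye-field genes Six3 and Rax, with log2 differences of 0.12 and -0.58, did not pass.

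On the ventral side, Shh, the ligand of the floor plate, varied widely within each stage, at 8.82 to 10.29 at E9.5 and 8.43 to 10.39 at E8.5 (log2 difference 0.02, SE 0.67, adjusted p = 0.982). Its receptor and target Ptch1 gave a log2 difference of 0.02 as well. Nkx2-9, a ventral homeobox factor, read 6.12, 6.18, 6.14 and 5.19 at E9.5, and 7.59, 8.54 and 7.63 at E8.5, a 4.03-fold fall (adjusted p = 3.4e-06, detected on 3 of 4 E9.5 arrays). Corin, a protease of ventral midline cells in embryonic midbrain, gave a log2 difference of 1.84 and was detected on 1 of 3 E8.5 arrays. In the Shh and ventral list, 4 of 17 tested genes rose and 5 fell, but 1 rose without E8.5 replicate 1 and 2 rose without E8.5 replicate 3 or under 75th-percentile scaling.

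Genes of the epiblast and of pluripotency showed 11 falls and 5 rises among 36 tested, and 23 falls and 3 rises under 75th-percentile scaling. Rises were also 3 without E8.5 replicate 1 or 2 or without E9.5 replicate 1 or 3. Eras, a Ras-like GTPase of embryonic stem cells, read 5.38, 5.42, 5.60 and 6.17 at E9.5, and 9.71, 9.37 and 9.79 at E8.5, a 15.8-fold fall (adjusted p = 1.61e-07, detected on 2 of 4 E9.5 arrays). Zscan10, a zinc-finger factor of pluripotent cells, fell 4.33-fold, and Klf5, a Krüppel-like factor, 3.07-fold. Of the core factors, Pou5f1 read 4.92 to 5.53 at E9.5 and 5.76 to 7.61 at E8.5 without passing (adjusted p = 0.0602), and Nanog and Utf1 were at background on all 7 arrays. Dnmt3b, the de novo DNA methyltransferase, was bright at both stages and fell, with 11.87 to 12.23 at E9.5 and 13.12 to 13.59 at E8.5 (log2 difference -1.33, SE 0.17, adjusted p = 4.55e-06). A second probe of Dnmt3b gave -1.59.

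Among 23 tested genes of the Lin28 and let-7 circuit, which times developmental transitions, 8 fell and 5 rose, and 2 rose without E8.5 replicate 1 or under 75th-percentile scaling. Nr6a1, an orphan nuclear receptor that silences pluripotency genes and is a let-7 target, read 9.80 to 10.21 at E9.5 and 12.29 to 12.41 at E8.5, a 5.0-fold fall (adjusted p = 2.14e-08). Lin28a, the RNA-binding protein that blocks let-7 maturation, read 9.55, 9.22, 9.12 and 8.88 at E9.5, and 10.07, 10.02 and 10.36 at E8.5 (log2 difference -0.95, adjusted p = 0.00971). Arid3b, a DNA-binding protein and let-7 target, fell 2.14-fold. Hmga2, a chromatin protein repressed by let-7, had a log2 difference of 0.87 at levels of 5.27 to 5.82 at E9.5 and 4.63 to 4.82 at E8.5. That direction turned to -0.18 under 75th-percentile scaling.

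Neural progenitor genes split evenly, with 10 rises and 10 falls among 40 tested, and 6 falls with E8.5 replicate 2, E8.5 replicate 3 or E9.5 replicate 4 left out. Under 75th-percentile scaling 9 rose and 16 fell. Vim, the intermediate filament vimentin of radial cells and of mesenchyme, read 12.35, 12.43, 12.37 and 12.14 at E9.5, and 10.55, 10.53 and 9.62 at E8.5, a 4.25-fold rise (adjusted p = 8.03e-07). Nes, the filament nestin, rose 3.5-fold, although a second nestin probe gave a log2 difference of 0.20. Pou3f1, a POU factor of the early neural plate, fell 5.82-fold, with 7.29 to 8.08 at E9.5 and 10.09 to 10.42 at E8.5. Sox21, a SoxB factor that in chick counteracts the progenitor factors, fell 3.19-fold.

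Sox2 did not pass on its brighter probe (log2 difference -0.53, adjusted p = 0.277), while its other probe passed as a rise of 1.17 (adjusted p = 2.03e-05). Hes5, a Notch target that holds progenitors undifferentiated, read 8.79, 8.58, 8.38 and 7.20 at E9.5, and 8.49, 8.73 and 8.5 at E8.5 (adjusted p = 0.531). The fourth E9.5 array was the lowest of the 4 for both genes. In the Notch list 7 of 25 genes rose and 3 fell, and 5 rose and 6 fell under 75th-percentile scaling. Without E8.5 replicate 3, 1 fell. The rises included the modulators of Notch sugar chains Mfng (3.27-fold, with a log2 difference of 0.41 on a second probe) and Lfng (log2 difference 0.94, detected on 1 of 3 E8.5 arrays), and the feedback inhibitor Nrarp (2.52-fold). Hes3, an isthmic Hes gene, was at background on all E9.5 arrays and was at least 2.96-fold lower. Dlk1, an imprinted non-canonical Notch ligand, rose 5.09-fold.

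Of 16 proneural and neurogenic factors tested, 8 rose, 7 of them by at least 2-fold, and none fell (limma), with a median log2 difference of 0.57. At an unadjusted p under 0.05, 10 were higher and 0 lower, and under 75th-percentile scaling 6 rose and 1 fell. Neurod4, a basic helix-loop-helix factor of committed neuronal precursors, read 8.25, 8.59, 8.86 and 9.19 at E9.5, and was at background at E8.5 with 4.92, 5.18 and 4.80. It was at least 7.88-fold higher (adjusted p = 4.41e-08). Insm1, a zinc-finger factor of dividing neuronal precursors, read 8.70 to 9.04 at E9.5 and 6.04 to 7.10 at E8.5, a 4.9-fold rise. Ebf2 and Ebf3, which act after the proneural step, rose 4.55-fold and 3.07-fold (each detected on 2 of 3 E8.5 arrays), and Gadd45g, a stress-response gene switched on by proneural factors, rose 2.43-fold. Neurog2 rose 2.17-fold on its brightest probe, detected on 2 of 3 E8.5 arrays, while a second probe gave a log2 difference of -0.05. Neurog1 passed with a difference of 0.68 close to background, and its direction turned to -0.19 under 75th-percentile scaling.

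Neuronal differentiation genes showed 23 rises and 6 falls among 47 tested, with 13 rises of at least 2-fold and a median log2 difference of 0.55. Under 75th-percentile scaling the counts were 18 and 18, with a median of -0.03 against -0.39 for all genes. Gap43, the growth-cone protein, read 9.34, 9.5, 9.29 and 9.48 at E9.5, and 7.10, 7.32 and 7.09 at E8.5, a 4.7-fold rise (adjusted p = 5.94e-08). Elavl4, a neuronal RNA-binding protein, was at least 2.43-fold higher at E9.5, although its second probe gave -0.10. Dcx, the microtubule protein doublecortin, gave a log2 difference of 1.66 (detected on 1 of 3 E8.5 arrays), with 1.34 on a second probe. Myt1, a zinc-finger factor of new neurons, was at least 2.51-fold higher, and Stmn1, a microtubule regulator also found in progenitors, rose 3.74-fold.

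Several standard neuronal markers did not pass. Tubb3, the neuronal tubulin, read 5.24 to 5.71 at E9.5 and 5.17 to 6.35 at E8.5. Stmn2, a growth-associated microtubule regulator, read 9.53 to 10.56 at E9.5 and 9.61 to 10.65 at E8.5, and Ina, a neuronal filament protein, also overlapped between stages. Rbfox3, the antigen of mature neurons known as NeuN, fell 3.89-fold. Among regulators of neuronal type, Isl1, a LIM homeobox factor of motor, sensory and arch cells, rose 2.69-fold, and Pou4f1, a factor of sensory neurons, 3.46-fold. Lhx5, a LIM factor of forebrain and spinal interneurons, fell 6.87-fold, with 5.97 to 7.53 at E9.5 and 9.49 to 9.76 at E8.5.

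**Figure D3:**
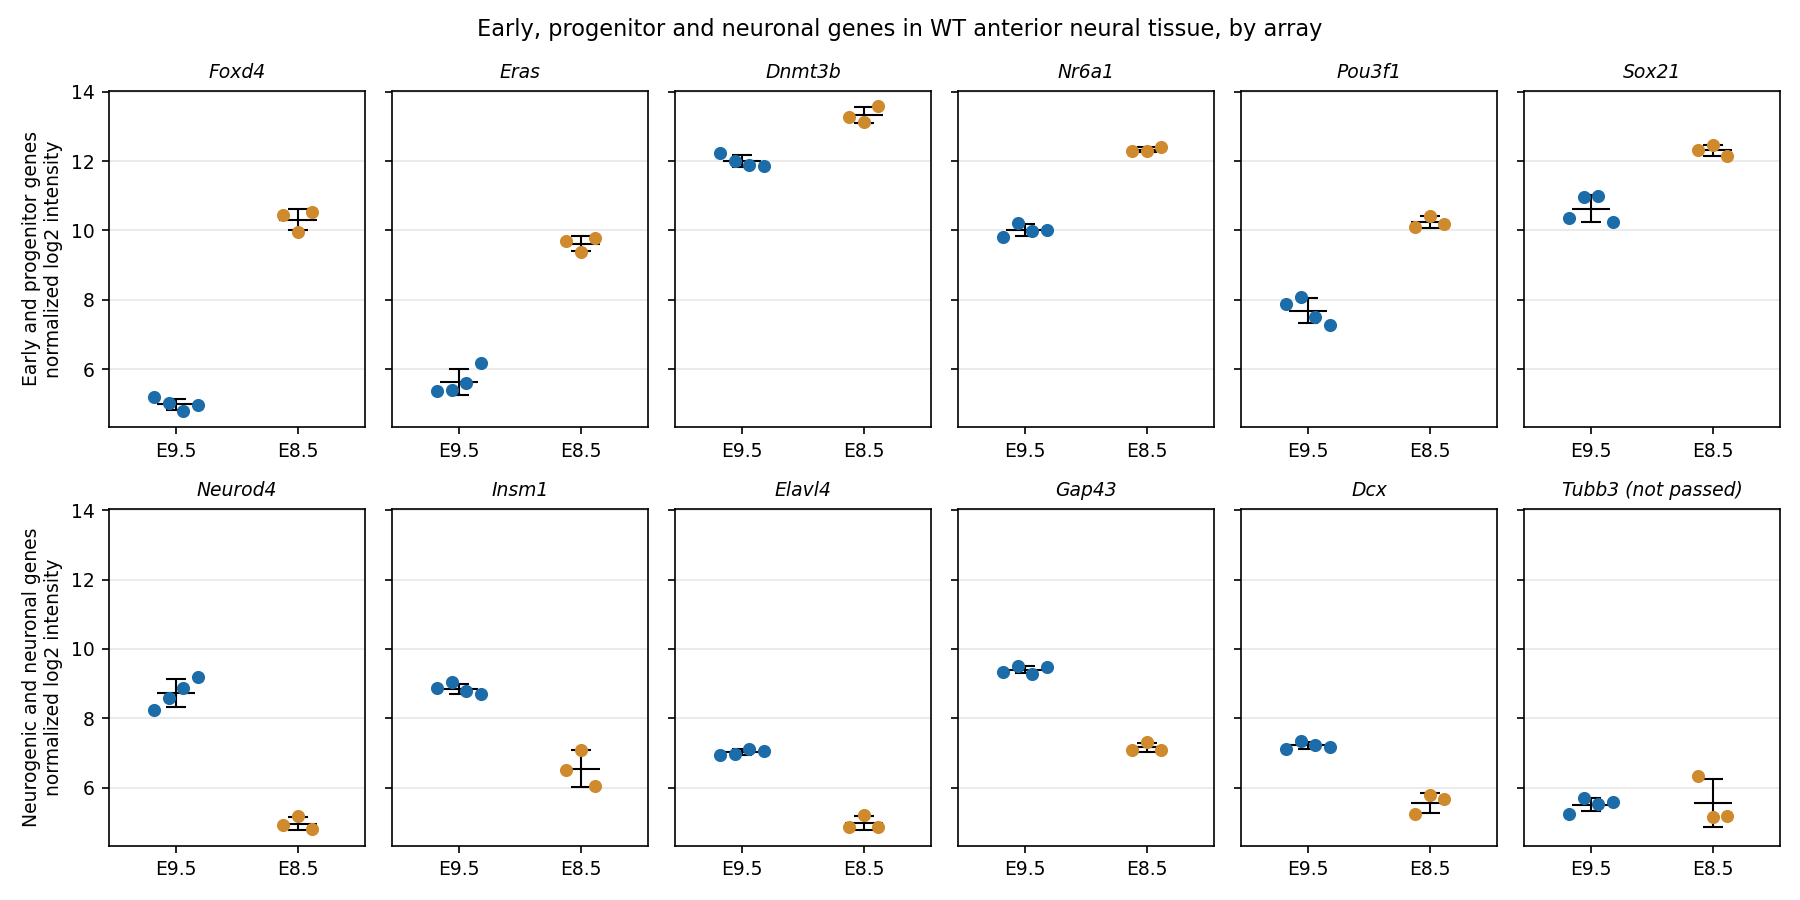
Normalized log2 intensity of 12 early, progenitor, neurogenic and neuronal genes on each array of WT anterior neural tissue; points are arrays (4 at E9.5 on the left, 3 at E8.5 on the right), and black bars are means with SD. The 6 early and progenitor genes in the upper row were lower on every E9.5 array, the first 5 genes of the lower row were higher on every E9.5 array, and Tubb3 overlapped between stages.

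Signalling genes changed in both directions. In the Wnt list, 12 of 55 rose and 14 fell, near the shares over all genes, and 11 rose and 29 fell under 75th-percentile scaling. Rspo3, a secreted R-spondin that amplifies Wnt signals, read 8.95, 9.03, 9.19 and 9.13 at E9.5, and 6.34, 6.99 and 5.43 at E8.5, a 7.05-fold rise (adjusted p = 1.11e-06, detected on 2 of 3 E8.5 arrays). Its relative Rspo2 was at least 3.94-fold higher and the ligand Wnt7a at least 2.09-fold higher. Dact2, a modulator of Dishevelled, was at background on all E9.5 arrays and at least 4.08-fold lower, and the Wnt inhibitor Apcdd1 fell 3.31-fold, with an adjusted p of 0.0124 that became 0.0514 without E8.5 replicate 2.

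Of 32 FGF pathway genes tested, 3 rose and 8 fell, with 5 falls without E8.5 replicate 3, and 2 rises and 18 falls under 75th-percentile scaling. The feedback phosphatase Dusp4 fell 4.46-fold (7.59 to 8.19 at E9.5, against 9.61 to 10.26 at E8.5). Its other probes gave log2 differences of -1.86 and -0.44, the second of which did not pass. Fgf15, a ligand of the neural tube, fell 1.75-fold. In the BMP and TGF-beta list 10 of 39 rose and 7 fell, with 4 falls without E8.5 replicate 2, and 8 rises and 15 falls under 75th-percentile scaling. The BMP target Msx1 rose 2.48-fold and the ligand Bmp4 2.03-fold, though Bmp4 had an adjusted p of 0.0599 without E8.5 replicate 2. The BMP relative Gdf10 fell 7.11-fold and the activin antagonist Fst 3.09-fold.

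Of 15 tested retinoic acid genes, 3 rose and 2 fell, and 2 rose and 9 fell under 75th-percentile scaling. In retinoic acid metabolism, the synthesizing enzymes of this family moved in opposite directions. Aldh1a3, expressed in surface and head ectoderm and ventral eye, was at background at E8.5 and at least 4.2-fold higher at E9.5, with 7.47 to 8.26 on the E9.5 arrays. Aldh1a2, the enzyme of mesoderm, was at background at E9.5 and at least 2.08-fold lower. A second Aldh1a2 probe gave a log2 difference of -0.90 and did not pass. Crabp2, a retinoid carrier, rose 1.65-fold. Its limma adjusted p was 0.071 under 75th-percentile scaling and 0.073 with a random block for plate.

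Of 59 tested genes needed for neural tube closure, 6 rose and 12 fell, and 5 rose and 27 fell under 75th-percentile scaling. Vangl2, a core protein of planar cell polarity, fell 2.16-fold, with 9.47 to 10.14 at E9.5 and 10.78 to 11.14 at E8.5, while a second probe gave a log2 difference of -0.29. Celsr3, an atypical cadherin of the same pathway, fell 3.8-fold. Gldc, the glycine decarboxylase of mitochondrial folate metabolism, fell 2.12-fold, with -0.96 on a second probe. Grhl2, an epithelial factor of surface ectoderm, rose 2.14-fold. Shroom3, which drives apical constriction, did not pass (log2 difference -0.35, SE 0.21, adjusted p = 0.198), and neither did Grhl3 (0.06). Under 75th-percentile scaling the direction of Grhl3 turned, to -0.60 with an adjusted p of 0.0273.

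Axon guidance genes showed 8 rises and 13 falls among 52 tested, and 8 rises and 29 falls under 75th-percentile scaling. The ephrin receptor Ephb1 fell 4.9-fold, with 7.92 to 8.64 at E9.5 and 10.39 to 10.74 at E8.5. Sema4f, a membrane semaphorin, was at background on all E9.5 arrays and at least 4.75-fold lower. The receptor Epha3 was at least 3.5-fold higher on its brightest probe, while its other probes gave log2 differences of -0.04 and 0.51.

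Markers of tissues that surround the neural tube were examined as well, and those of head mesenchyme included many rises. Fewer cells of a type and less RNA per cell cannot be told apart in tissue lysates, and how far such cells add to the differences above was not tested. Of 27 head mesenchyme genes tested, 16 rose and 2 fell, 14 of the rises were at least 2-fold, and the median log2 difference was 1.09. The mean level of the list was 7.68 to 7.84 at E9.5 and 6.34 to 6.81 at E8.5. Col3a1, a fibrillar collagen, read 7.99, 7.79, 8.22 and 8.18 at E9.5, and was at background with 4.97, 5.02 and 4.77 at E8.5, at least 4.91-fold higher (adjusted p = 7.36e-13). Twist1, a basic helix-loop-helix factor of crest and mesenchyme, read 11.55 to 11.67 at E9.5 and 9.29 to 10.22 at E8.5, a 3.36-fold rise. Barx1, a homeobox factor of arch mesenchyme, was at least 4.82-fold higher, and Prrx1, a paired-type factor, rose 4.52-fold. The other Prrx1 probes gave log2 differences of 2.42, 1.86 and -0.19, the last of which did not pass. Col1a1, detected on 1 of 3 E8.5 arrays, gave a log2 difference of 2.93, and 2.40 without E9.5 replicate 4, which read 9.99 against 7.75 to 8.05 on the other E9.5 arrays. The list shares Dlx1 and Dlx2 with the forebrain list, and Tcf21 and Meox1 were its 2 falls, with 1 fall without E8.5 replicate 1 or 3.

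In the neural crest list, 5 of 19 tested genes rose and 2 fell. Of the defining crest genes, Foxd3 was at background on all 25 arrays, and Sox10 has no named probe here. In the primitive erythroid list 11 of 23 rose and none fell (limma; 14 higher and 0 lower at an unadjusted p under 0.05), but 4 rose once E8.5 replicate 3, the array lowest in blood markers, was left out, and 7 without E9.5 replicate 1. Its mean was 9.26 to 9.67 at E9.5, against 8.71, 8.82 and 7.83 on the 3 E8.5 arrays. Alas2, the erythroid enzyme of heme synthesis, read 10.30 to 10.88 at E9.5 and 6.62 to 8.34 at E8.5, a 7.53-fold rise. Embryonic globin Hbb-y read 14.73 to 14.82 at E9.5, and 12.35, 13.97 and 10.98 at E8.5.

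Of 30 endothelial genes tested, 8 rose and 2 fell, with 1 fall without E8.5 replicate 1 or E9.5 replicate 3. Fli1, an ETS factor of blood and vessels, was at least 3.95-fold higher at E9.5, and Emcn, endomucin, rose 5.05-fold. Etv2, the ETS factor that starts the blood and endothelial lineage and is then switched off, read 6.96, 7.58, 7.34 and 7.14 at E9.5, and 11.23, 10.62 and 10.37 at E8.5, an 11.2-fold fall (adjusted p = 1.06e-08). Its stages did not overlap on any array. In the surface ectoderm list, 5 of 23 rose and 5 fell, with 3 falls without E8.5 replicate 3 or E9.5 replicate 2. Trp63, the basal epithelial factor p63, rose 4.62-fold and Krt14 gave a log2 difference of 2.24 (detected on 1 of 3 E8.5 arrays), while Cdh1, Krt8 and Krt18 overlapped between stages.

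Few markers of heart, gut and placenta rose. In the cardiac list 5 of 27 fell and 1 rose, in the gut endoderm list 6 of 22 fell and none rose (10 lower and 0 higher at an unadjusted p under 0.05), and in the placental list 5 of 15 fell and 1 rose (limma). Cardiac falls were 3 with E8.5 replicate 1 or 3 or E9.5 replicate 3 or 4 left out, 0 with both E8.5 replicates out, and 21 under 75th-percentile scaling. Gut falls were 3 without E8.5 replicate 1 and 14 under that scaling. The placental falls were lost when either E8.5 replicate 1 or replicate 3 was left out: 2 genes then fell without replicate 1 and none without replicate 3. Rhox9, a homeobox gene of placenta and gonad, read 4.60 to 4.77 at E9.5, and 8.97, 4.82 and 9.30 at E8.5. Lgals3, a galectin of trophoblast and macrophages, and Meox1, a homeobox factor of somites, were also high on E8.5 replicates 1 and 3, at 8.88 and 9.65 for Lgals3 and 9.38 and 9.42 for Meox1. Replicate 2 read 5.19 for Lgals3 and 6.13 for Meox1.

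Falls outnumbered rises among ribosome biogenesis and glycolysis genes, and rises outnumbered falls among respiratory chain genes. Of 47 tested genes of ribosome biogenesis, which is carried out in the nucleolus, 20 fell and 5 rose, with a median log2 difference of -0.25, and 3 rose without E8.5 replicate 1. Srm, spermidine synthase, read 12.11, 12.14, 11.67 and 11.39 at E9.5, and 13.20, 13.13 and 13.14 at E8.5, a 2.51-fold fall (adjusted p = 1.98e-06), and its other probes gave -0.96 and -0.76. Nolc1, a nucleolar chaperone, fell 2.37-fold, Noc4l, a factor of small-subunit assembly, 2.33-fold, and Polr1a, the large subunit of RNA polymerase I, 2.31-fold. Cytosolic ribosomal protein genes had a median difference of 0.05, with 7 rises and 3 falls among 55 tested, but 2 rises and 35 falls under 75th-percentile scaling. Without E9.5 replicate 4 or any single E8.5 array, 1 fell. Rpl22l1, a paralog of a ribosomal protein, gave a log2 difference of 3.73 and was detected on 1 of 3 E8.5 arrays.

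Glycolysis and hypoxia-response genes fell in 16 of 36 cases and rose in 4, with a median log2 difference of -0.34. Slc2a1, the glucose transporter GLUT1, read 12.55, 12.45, 12.47 and 12.27 at E9.5, and 13.87, 13.76 and 14.03 at E8.5, a 2.73-fold fall (adjusted p = 2.32e-06). Hk2, the inducible hexokinase, read 11.89, 11.93, 11.83 and 11.29 at E9.5, and 13.21, 13.17 and 13.19 at E8.5, a 2.74-fold fall. Pfkl, the liver-type phosphofructokinase, fell 2.33-fold and the neuronal enolase Eno2 2.62-fold. A second Pfkl probe gave a log2 difference of -0.69. Hif1a, the oxygen-sensitive transcription factor of this response, rose 1.44-fold. It did not pass with a random block for plate (limma adjusted p = 0.0936), where the list had 0 rises and 10 falls. The list had 11 falls without E8.5 replicate 1, and its rises were 1 or 2 with E8.5 replicate 2 or 3 or E9.5 replicate 1, 2 or 3 left out.

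The upstream sequences of Hk2 and Slc2a1 are shown because both genes are classic targets of hypoxia-inducible factors, whose core recognition letters are ACGTG. Capitals mark these letters on either strand (CACGT when read on the other strand). In Hk2, on chr6:82774455-82774704, minus strand, matches begin 226 and 52 bases upstream of the start, and in Slc2a1, on chr4:119108495-119108744, plus strand, 1 begins 36 bases upstream (RefSeq, GRCm38.p6).
Hk2: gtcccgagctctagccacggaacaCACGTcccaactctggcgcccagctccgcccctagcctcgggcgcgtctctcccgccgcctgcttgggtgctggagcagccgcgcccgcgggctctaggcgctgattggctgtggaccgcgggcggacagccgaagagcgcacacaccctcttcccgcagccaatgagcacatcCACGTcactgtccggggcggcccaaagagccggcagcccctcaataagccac
Slc2a1: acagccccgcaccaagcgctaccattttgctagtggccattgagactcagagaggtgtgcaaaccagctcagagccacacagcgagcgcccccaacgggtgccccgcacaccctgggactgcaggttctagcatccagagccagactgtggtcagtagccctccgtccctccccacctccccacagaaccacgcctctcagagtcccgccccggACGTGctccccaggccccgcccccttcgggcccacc
The letters occurred in 7 of the 14 fallen glycolysis genes with a promoter sequence and in 16 of all 32 tested glycolysis genes with one, 50% in both cases, against 21.2% of the 8311 tested genes with a promoter. They are also contained in the Myc-type E-box CACGTG.

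Respiratory chain genes rose in 36 of 68 cases and fell in 6, with 15 rises of at least 2-fold and a median log2 difference of 0.34. Under 75th-percentile scaling 22 rose and 12 fell, with a median of 0.08 against -0.39 for all genes. Falls were 2 without E8.5 replicate 1 and 3 without E8.5 replicate 3 or E9.5 replicate 2. Uqcrb, a subunit of complex III, read 11.67, 11.79, 11.82 and 11.95 at E9.5, and 9.58, 9.84 and 9.85 at E8.5, a 4.15-fold rise (adjusted p = 6.48e-09). Cox7a2, a small subunit of cytochrome c oxidase, rose 4.39-fold, and Cox7b, another, gave a log2 difference of 2.76 and was detected on 1 of 3 E8.5 arrays. Ndufb4, an accessory subunit of complex I, read 7.34, 7.39, 7.5 and 7.88 at E9.5. It was at background with 4.72, 4.94 and 4.93 at E8.5, and was at least 3.44-fold higher at E9.5. Probes of the abundant RNAs Eef1a1 and Tpt1, given below, were likewise at background at E8.5, so this bound describes the probe's signal.

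The upstream sequence of Ndufb4 is shown because it holds the letters of the site of NRF1, a transcription factor of nuclear genes for mitochondrial proteins. It lies on chr16:37654369-37654618, minus strand (RefSeq, GRCm38.p6), and capitals mark GCGC and TGCGC separated by 1 base, on either strand, beginning 191, 79 and 22 bases upstream of the start.
Ndufb4: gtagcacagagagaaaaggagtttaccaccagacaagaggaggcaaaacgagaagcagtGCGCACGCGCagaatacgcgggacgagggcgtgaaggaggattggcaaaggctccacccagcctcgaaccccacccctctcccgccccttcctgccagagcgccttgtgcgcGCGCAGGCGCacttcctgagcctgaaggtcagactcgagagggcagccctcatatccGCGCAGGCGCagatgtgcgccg
The letters occurred in 6 of the 30 risen respiratory genes with a promoter sequence (20%) and in 8 of all 58 tested ones (13.8%), against 8.06% of the tested genes with a promoter. These counts are a description of the windows.

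**Figure D4:**
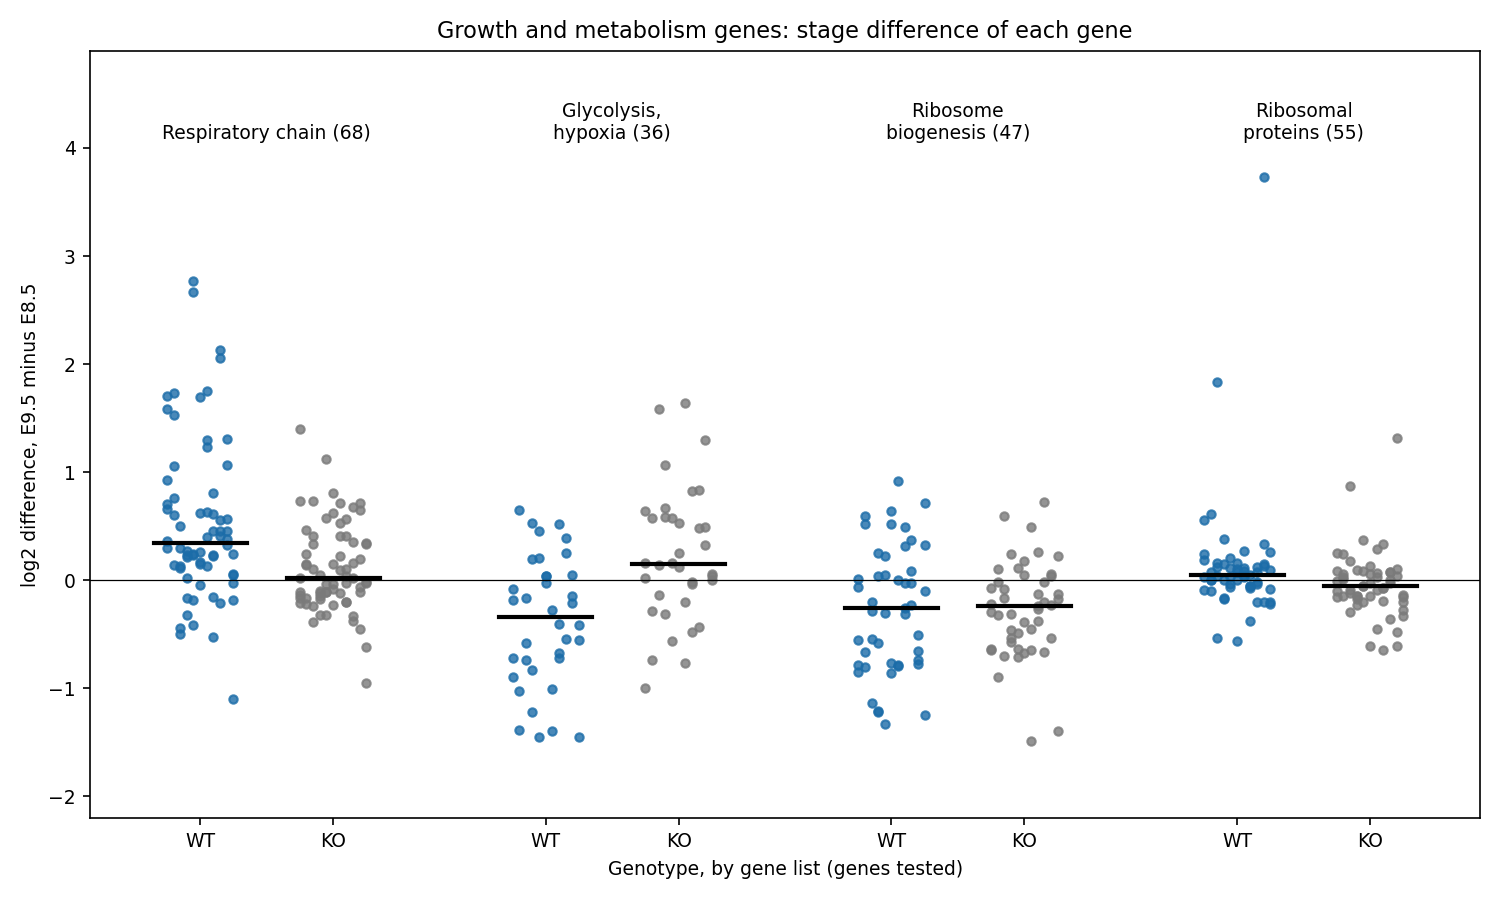
Log2 difference between E9.5 and E8.5 for each tested gene of 4 growth and metabolism lists, in WT tissue (blue) and in miR-302 KO tissue (grey); black bars are medians and the number of genes tested is in brackets. The WT medians were 0.34 for respiratory chain, -0.34 for glycolysis, -0.25 for ribosome biogenesis and 0.05 for ribosomal protein genes, and the KO medians 0.02, 0.15, -0.24 and -0.06.

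Cell cycle and replication genes rose in 22 of 61 cases and fell in 15, and 11 rose and 21 fell under 75th-percentile scaling. Pcna, the replication clamp, read 8.91 to 10.06 at E9.5 and 7.47 to 7.67 at E8.5, a 3.92-fold rise, and Ccnf, an F-box cyclin, fell 2.87-fold. The G1 cyclin Ccnd1 fell 1.71-fold. Its other probes gave log2 differences of -0.85 and -0.45, the second of which did not pass. Among 22 tested targets of the tumour suppressor p53, 5 rose and 3 fell (5 and 5 under 75th-percentile scaling). Phlda3, an inhibitor of Akt, rose 3.02-fold and Mdm2, the ligase that degrades p53, fell 2.23-fold. A second Mdm2 probe gave a log2 difference of -0.51. Cdkn1a, the cell cycle inhibitor p21, rose 2.22-fold on its brightest probe, with log2 differences of 0.35 and 0.58 on its other probes, which did not pass.

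Eef1a1, Tpt1 and Actb, housekeeping genes chosen after their values were seen, give the behaviour of single probes of abundant RNAs. The named probe of the translation factor Eef1a1 read 7.27 to 7.57 at E9.5 and was at background on all 3 E8.5 arrays, at least 3.15-fold higher at E9.5. The probe of Tpt1, a translationally controlled protein, was at background on the same arrays, and its signal was at least 4.66-fold higher at E9.5. Because these RNAs are abundant, a probe at background may not report the level of its gene. A lower bound that rests on such a reading describes the probe's signal, and its cause was not tested. The brightest probe of Actb gave a log2 difference of -0.47, and its 4 other probes gave -2.42, -2.0, -1.96 and 0.06. Over all genes that passed, 1502 of 1878 other probes (80.0%) had the same direction as the probe used, 818 passed in that direction and 63 passed in the opposite one.

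Tissue of miR-302 KO embryos, whose arrays are separate from the WT arrays, showed much of the same stage pattern. In KO tissue 3508 genes passed between E9.5 and E8.5 (34.2%). Of the 4298 genes that passed in WT, 3653 (85%) had the same sign in KO, and 2119 passed in both with the same direction, which is 49.3% of the WT calls and 60.4% of the KO calls. Another 60 passed in opposite directions. The KO comparison has the same overlap of stage and plate at E9.5, with E8.5 KO arrays on plates 2 and 3. Neuronal differentiation (median 0.55 in WT, 0.53 in KO), head mesenchyme (1.09 in WT, 1.22 in KO) and ribosome biogenesis (-0.25 in WT, -0.24 in KO) had close medians in both genotypes. Medians were of opposite sign for midbrain and isthmus (-0.57 in WT, 0.13 in KO), hindbrain (-0.47 in WT, 0.55 in KO), anterior identity (-0.55 in WT, 0.08 in KO) and glycolysis (-0.34 in WT, 0.15 in KO).

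The difference between the WT and KO stage changes was itself tested and passed for 1038 genes (10.1%). Plate was not balanced in this difference. All E9.5 arrays of both genotypes were on plate 4, and all E8.5 WT arrays on plate 2. Of the E8.5 KO arrays, replicate 1 was on plate 2 and replicates 2 and 3 on plate 3. Genotype and plate therefore partly coincide at E8.5. In 594 the WT change lay above the KO change and in 444 below. Isthmic and hindbrain genes were among them: Gbx2 changed by -3.09 in WT and -0.85 in KO (adjusted p of the difference = 0.000459), En1 by -3.23 in WT and -0.42 in KO (adjusted p = 0.00644), and Irx2 by -1.57 in WT and -0.12 in KO (adjusted p = 0.0029). Rspo3 changed by 2.82 in WT and -0.37 in KO (adjusted p = 0.00119). Its means were 9.07 at E9.5 and 6.26 at E8.5 in WT, and 8.30 at E9.5 and 8.67 at E8.5 in KO, so that the E8.5 groups were the further apart.

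Of the 68 respiratory chain genes, 18 differed between genotypes, among them Uqcrb (2.05 in WT, 0.68 in KO, adjusted p = 0.00119) and Cox7b (2.76 in WT, 0.57 in KO, adjusted p = 0.00261). Of the 36 glycolysis genes 4 differed, near the 10.1% of all genes, among them Hk2 (-1.45 in WT, 0.04 in KO, adjusted p = 0.0037). Ccng1, a cyclin and p53 target, changed by 1.09 in WT and -0.77 in KO (adjusted p = 0.00237), with 1.99 and 1.56 in WT on its other probes. Sox2 and Hes5, which did not pass in WT on the probes used, changed by 1.61 and 1.94 in KO, with adjusted p of the difference of 0.0181 and 0.0178. The Sox2 probe that rose by 1.17 in WT was not part of that test. The count of 1038 was sensitive to single arrays. It was 407 without E8.5 WT replicate 1, 490 without E9.5 WT replicate 4, 434 without E8.5 KO replicate 2, 663 without E9.5 WT replicate 3 and 676 without E9.5 KO replicate 3.

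**Figure D5:**
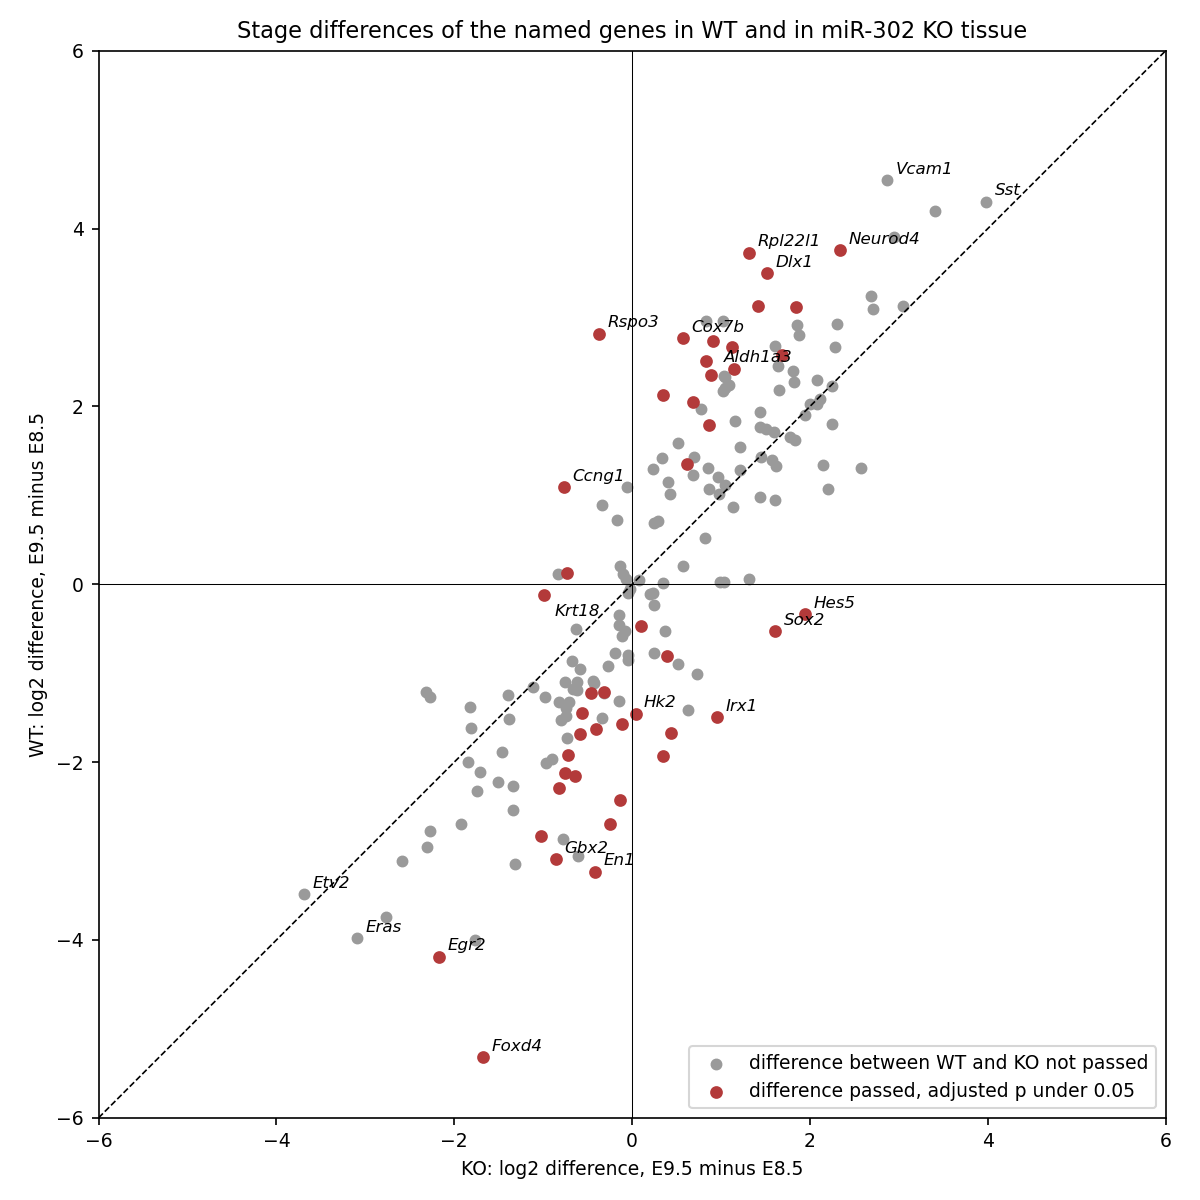
Log2 difference between E9.5 and E8.5 of the 186 named genes, in WT tissue (vertical axis) and in miR-302 KO tissue (horizontal axis); each point is a gene, red points passed the test of the difference between the genotypes, and the dashed line marks equal changes. Sst, Eras and Etv2 lie near the line, and Foxd4, En1, Gbx2, Rspo3, Ccng1, Sox2 and Hes5 lie away from it.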

How the data were processed

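Values came from the deposited table of non-normalized probe intensities and detection p-values, written by the authors' scanner software per the file headers. No source used here states how the deposited processed values were made. RNA was extracted with Trizol and labelled as biotinylated cRNA, per the labels' protocols.

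All 25 arrays were background-corrected, quantile-normalized and log2-transformed with neqc (offset 16) in limma 3.58.1 (R 4.3.3). A probe was retained if 3 or more arrays detected it at p under 0.05 (15030 probes, of which 885 without a symbol were left out), and the probe with the highest mean stood for its gene (10261 genes). Symbols came from GEO's platform annotation. limma's lmFit and eBayes were fitted to 9 groups with 16 residual degrees of freedom, two-sided, with Benjamini-Hochberg adjustment over all genes. The procedure was tested on simulated data.

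The 186 named genes were selected for the text from a larger set made by rule. That set held the 15 largest rises and falls without overlap, up to 6 of each per gene list, and preset panel genes. A few genes chosen after their values were seen were added. Members and lists were chosen with earlier results of these data known. Counts over the named genes describe this selection. Promoter sequences were RefSeq's. The 3 E8.0 WT arrays hold each other's values in the raw and the processed deposited tables, so no E8.0 comparison is reported. Those arrays entered the normalization, the probe filter, the choice of probe and the pooled spread. Alternatives covered scaling, background correction, filters, probe choice, arrays in the fit, plate and replicate as blocks, array weights and leaving out arrays. Sequence depth does not apply to arrays; the number of arrays limits the precision.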

Additional observations from a re-analysis of the deposited data

Results flagged for a closer look

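Of the 186 named genes, 45 had a stage change that differed between WT and KO tissue by the test of the difference itself (adjusted p under 0.05). Over all 10261 genes tested, 1038 did (10.1%). Many named genes were chosen for a large WT change, which is part of this difference. Their share therefore cannot be compared with that of all genes. Genotype and plate also partly coincide at E8.5, as given above. The values below are the WT change minus the KO change, as log2 differences.

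In 20 genes the WT change lay above the KO change. The larger differences were those of Rspo3 (3.19), Rpl22l1 (2.41), Cox7b (2.19), Dlx1 (1.98), Ccng1 (1.86), Aldh1a3 (1.83), Cox7a2 (1.78), Gng5 (1.72), Epha3 (1.69) and Ndufb4 (1.54). Smaller ones were those of Dlk1 (1.46), Neurod4 (1.42), Uqcrb (1.37), Rspo2 (1.28), Zic4 (1.27), Pou4f1 (0.93), Fli1 (0.89), Krt18 (0.86), Cdh1 (0.86) and Ccna2 (0.73). Rspo3, a Wnt amplifier, and Ccng1, a p53 target, had opposite signs in the genotypes, with WT changes of 2.82 and 1.09 and KO changes of -0.37 and -0.77. Cdh1 and Krt18, epithelial genes, had WT changes of 0.13 and -0.12 that did not pass.

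In 25 genes the WT change lay below the KO change. The larger differences were those of Foxd4 (-3.64), En1 (-2.81), Irx1 (-2.45), Sema4f (-2.44), Hes3 (-2.28), Dact2 (-2.28), Hes5 (-2.28), Gbx2 (-2.24), Sox2 (-2.13), Sox21 (-2.11) and Egr2 (-2.01). They were intermediate for Gdf10 (-1.81), Dusp4 (-1.52), Hk2 (-1.49), Ephb1 (-1.47), Irx2 (-1.45), Wnt1 (-1.37), Fst (-1.22), Fgf15 (-1.21), Celsr3 (-1.20) and Sp5 (-1.09). They were smallest for Polr1a (-0.89), Slc2a1 (-0.89), Noc4l (-0.76) and Actb (-0.58). Midbrain, isthmus and hindbrain genes (En1, Gbx2, Wnt1, Sp5, Fgf15, Hes3, Egr2, Irx1 and Irx2) stood on this side.

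Dixon's test set 1 of the 4 E9.5 WT arrays apart from the others in 9 of the 186 named genes. The test flags about 1 in 20 groups by chance, and 9 of 186 is near that share. The flags therefore do not show more outlying readings than chance would give, and they are listed as a description. Replicate 4 was the lowest for Hoxa2 (7.85), Nkx2-9 (5.19), Wnt7a (6.37), Gldc (11.07) and Hk2 (11.29), and the highest for Col1a1 (9.99). Replicate 3 was the highest for Wnt7b (8.66), replicate 2 for Hbb-bh1 (14.71) and replicate 1 for Rhox9 (4.77). Some flagged readings were close to the others. The Rhox9 readings at E9.5 were at background, at 4.60 to 4.77, and the other Hbb-bh1 readings at E9.5 were all 14.67.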

How the results depend on the processing

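Against 1944 rises and 2354 falls, scaling by the 75th percentile gave 1435 rises and 4816 falls, a random block for plate 1370 and 1670, and a fold of at least 2 on top of the test 753 and 585. With each of the 7 arrays left out in turn, rises ranged over 1620 to 1914 and falls over 1944 to 2308. Leaving out E8.5 replicates 1 and 3 together, chosen after seeing the data, gave 923 and 1157. The count of genes whose stage change differed between WT and KO ranged over 407 to 1303 around 1038 when each of the 14 arrays was left out. The cause was not tested. Hmga2 (-0.18), Neurog1 (-0.19) and Grhl3 (-0.60) changed sign under 75th-percentile scaling, which shifts the median of all genes to -0.39.

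E9.5 and E8.5 embryos share replicate numbers. The deviations of same-numbered arrays correlated at -0.03, 0.04 and -0.05, and those of differently numbered arrays at -0.12 to 0.12. So few arrays cannot show whether the numbers pair embryos, and the main fit did not pair them. With the replicate number as a block, 1803 genes rose and 2136 fell, and the difference between WT and KO passed for 906 genes.

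Of 186 named genes, 154 passed, and 98 of these kept their call and direction under every alternative run. The calls lost most often were those of Sox1, Hoxd3, Nkx2-5, Slc7a3, En2, Hes1, Wnt7b, Nefm and Cox4i2. Probes near background at one stage give bounds only, and stage cannot be told apart from plate in any setting.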

Other observations

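Further gene lists are given by their counts, to be read against 18.9% rising and 22.9% falling over all genes. Of 55 tested genes of the extracellular matrix, 16 rose and 8 fell in WT tissue at E9.5, with a median log2 difference of 0.32, though 12 rose and 16 fell under 75th-percentile scaling. Of 22 tested imprinted genes 4 rose and 5 fell, near those shares, with 13 falls under 75th-percentile scaling; Dlk1 rose 5.09-fold, while Cdkn1c, the imprinted cell cycle inhibitor, read 13.21 to 13.42 at E9.5 and 13.02 to 13.45 at E8.5. Of 29 tested genes of the primitive streak and caudal body, 6 fell and 1 rose, with 19 falls under that scaling. Of 12 tested macrophage and platelet genes 5 rose and 1 fell, the fall being Lgals3, which was high on E8.5 replicates 1 and 3 and was not called without either of them. Of 28 tested genes of visceral endoderm and yolk sac 3 fell and 1 rose (16 and 2 under 75th-percentile scaling), and Afp, their fetal secretory marker, was at background on all 7 arrays. Ttr, the secreted carrier transthyretin, read 4.65 to 4.81 at E9.5, and 5.16, 4.83 and 7.67 on the 3 E8.5 arrays, with replicate 3 the highest.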
